A study of Mus musculus with 12 samples.

Results

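The nuclei described here are the lipogenic Ucp1-zero adipocytes of cold-exposed iWAT, 680 of the 3959 nuclei kept from that library (17.2%) and of 119035 barcodes in the series. They were chosen from measured values. A nucleus was kept with at least 1000 UMIs (unique molecular identifiers, 1 per captured RNA molecule) and at most 10% mitochondrial UMIs. It was taken as an adipocyte when its summed UMIs of Adipoq, Plin1, Plin4, Lipe, Cidec and Acsl1 were at least 3 and exceeded the sum of 6 genes of other cells (Flt1, Ptprb, Lama2, Dcn, Mrc1 and Ptprc). This gave 2872 adipocyte nuclei, of which 2717 held no Ucp1 UMI and 155 held at least 1. The 2717 were ranked by the summed UMIs of Acly, Acaca, Fasn, Elovl6, Me1 and Acss2 over total UMIs, the lipogenic score. The members are the top 25% of that ranking, and the 680 nuclei of the bottom 25% are the comparison. The ranking is described below in 4 score groups of 25%, called bottom, lower-middle, upper-middle and top.

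The series holds 12 libraries of sorted adipose nuclei made with 10x Genomics 3′ chemistry, 1 library for each group, from male C57BL/6J mice on normal chow. The cold library (iWAT, CE) came from mice kept at 4 °C for 3 days, and the matching library (iWAT, RT) from mice kept at 22 °C. Both carry an age of 6 months in their titles and of 16 weeks in their characteristics. At 22 °C the other libraries are iBAT and mPRAT of 1, 2 and 6 months by title and lPRAT of 2 and 6 months, and after the same cold exposure they are iBAT and mPRAT of 6 months. iWAT usually stands for inguinal white, iBAT for interscapular brown, and mPRAT and lPRAT for medial and lateral perirenal adipose tissue. The labels do not give the number of animals behind a library, so a difference between libraries cannot be told apart from a difference between animals, dissections or preparations. With 1 library per group no test was made. All intervals are 95% intervals that cover counting error only.

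De novo lipogenesis builds fatty acids from acetyl-CoA in the cytosol. Acly makes that acetyl-CoA from exported citrate and Acss2 makes it from acetate, Acaca carboxylates it to malonyl-CoA, Fasn assembles the chain, Elovl6 lengthens it, and Me1 supplies NADPH. The transcription factors Srebf1 and Mlxipl (ChREBP) are known to drive these genes downstream of insulin and glucose, and in adipose tissue cold is known to raise lipogenesis alongside fat oxidation. Beige adipocytes are thermogenic cells that appear within white depots in the cold and are marked by Ucp1, the uncoupling protein of the inner mitochondrial membrane.

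The upstream sequence of 4 genes that come back below is shown because each holds letters known from lipogenic and sterol-regulated promoters. The windows are the 250 bases before the RefSeq start of each gene (GRCm38.p6 table), written 5′ to 3′ on the gene's strand. Capitals mark CACGTG, the E-box core, and CCAAT, the core bound by NF-Y, which reads ATTGG on the other strand.
Fasn, chr11:120824548-120824797, minus strand: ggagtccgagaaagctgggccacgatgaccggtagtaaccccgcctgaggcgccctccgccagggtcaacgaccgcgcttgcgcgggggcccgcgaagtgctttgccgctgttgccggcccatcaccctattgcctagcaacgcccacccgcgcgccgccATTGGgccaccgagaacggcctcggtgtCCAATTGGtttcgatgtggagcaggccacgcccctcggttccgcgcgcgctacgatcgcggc
Slc25a1, chr16:17928220-17928469, minus strand: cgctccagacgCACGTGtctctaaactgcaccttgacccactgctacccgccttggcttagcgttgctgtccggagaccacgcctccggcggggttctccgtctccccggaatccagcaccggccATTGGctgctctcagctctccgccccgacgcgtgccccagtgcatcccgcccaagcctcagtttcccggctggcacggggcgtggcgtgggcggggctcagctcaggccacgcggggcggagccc
Insig1, chr5:28071162-28071411, plus strand: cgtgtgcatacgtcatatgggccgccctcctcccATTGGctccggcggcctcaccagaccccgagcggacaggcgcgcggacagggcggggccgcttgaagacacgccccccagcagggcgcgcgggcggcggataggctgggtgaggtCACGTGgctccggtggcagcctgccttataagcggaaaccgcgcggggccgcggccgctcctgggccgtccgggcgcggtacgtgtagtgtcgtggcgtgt
Nsdhl, chrX:72918271-72918520, plus strand: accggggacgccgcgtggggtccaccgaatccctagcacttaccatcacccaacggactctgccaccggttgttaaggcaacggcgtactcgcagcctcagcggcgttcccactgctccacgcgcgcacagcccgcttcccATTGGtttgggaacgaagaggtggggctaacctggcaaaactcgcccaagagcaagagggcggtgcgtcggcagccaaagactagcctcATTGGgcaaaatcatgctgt

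Fasn held 3 matches of CCAAT, of which 2 overlap in the run of 8 capitals. Insig1 held CACGTG 101 to 96 bases before its start, and Slc25a1 held it 239 to 234 bases before. Both strands were searched for CACGTG, then for CCAAT, and then for TCACNCCAC, a sterol response element core. CACGTG occurred in 6.86% of the 27025 genes with a window, CCAAT in 37.5% and TCACNCCAC in 1.22%. Of the 6 score genes, all with a window, Fasn, Acss2 and Me1 held CCAAT and none held CACGTG or TCACNCCAC. The Acaca window (chr11:84195188-84195437) and the Me1 window with the match (chr9:86687278-86687527) lie inside the GENCODE genes, so they are not the sequence before those genes' outermost starts. CCAAT occurred in 16 of 17 cholesterol genes with a window (94.1%) and in 15 of 23 fatty acid synthesis partners (65.2%). In the lipogenic regulators, the list that holds Insig1, it occurred in 6 of 17 (35.3%), close to the share over all genes. A match is a description of these letters and not a binding site, and no match says only that the letters are not in the window.

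The score itself was spread widely in the cold library. The members' score had a median of 14088 CPM (UMIs per 1e+06 UMIs), a 10th percentile of 8476, a 90th percentile of 25307 and a highest value of 57226. The top group began at 7481 CPM, with 7418 CPM just outside it, and the bottom group ended at 1978 CPM, with 1979 CPM just outside. Within 10% of the upper limit lay 113 nuclei (4.16% of the Ucp1-zero nuclei), so the members are a range of the score with no gap at its edge. The histogram fell from its main peak to 4.20% of nuclei between 7943 and 10000 CPM and held 5.04% (137 nuclei) between 12589 and 15849 CPM. Pooled over the nuclei of each group, the score was 1338 CPM in the bottom, 2616 in the lower-middle, 4835 in the upper-middle and 15774 CPM in the top group. The cold library's 871 non-adipocytes held at least 3 UMIs of the 6 genes of other cells, exceeding those of the adipocyte genes. Their levels of both sets of genes follow in part from this definition. Another 216 kept nuclei were neither adipocytes nor non-adipocytes. The non-adipocytes stood at a pooled score of 445 CPM, and 0 of the 871 reached the upper limit (0 to 0.423%).

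**Figure D1:**
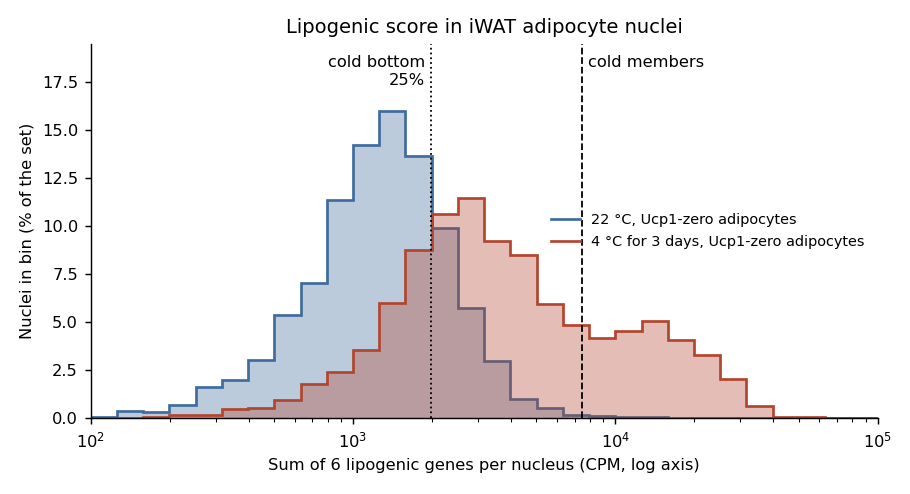
Share of Ucp1-zero adipocyte nuclei (vertical axis, percent) by lipogenic score (horizontal axis, CPM, log scale) in cold and 22 °C iWAT, with the limits of the cold groups as lines. The cold nuclei reach far above the 22 °C nuclei, and, with all 6 genes in the score, 0.285% of the 22 °C nuclei lie at or above the cold upper limit of 7481 CPM.

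Depth was similar across the score groups. The median nucleus held 5026.5 UMIs in the members and 4421.5 in the bottom group, 3953 in Ucp1-positive adipocytes and 1789 in non-adipocytes. Members ranged from 1086 to 31320 UMIs. The median share of mitochondrial UMIs was 0.106% in members and 0.0549% in the bottom group, and its part in the differences below was not tested. After every nucleus was thinned to 1000 UMIs, the score counts of cold Ucp1-zero nuclei had a mean of 6.17 and a variance 8.06 times the mean, against 1.46 and 1.58 at 22 °C. The summed adipocyte genes, thinned in the same way, had a mean of 7.79 in the cold and 7.92 at 22 °C, with a variance 1.82 and 2.48 times the mean. Variance over mean can rise with the mean, and the means differed for the score but were close for the adipocyte genes. The gap for the score is therefore not a measure of spread alone. Of the members, 15 carried a barcode sequence also found in another library (2.21%), against 157 of all 5028 barcodes (3.12%).

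UMIs of all 6 genes were found in 328 members (48.2%), of at least 5 in 570 (83.8%) and of at least 4 in 652 (95.9%). In the bottom group at least 4 were found in 83 nuclei (12.2%). With 1000 UMIs a nucleus, at least 4 were found in 430 members (63.2%), in 1 nucleus of the bottom group and in 10 of the 1228 nuclei of the 22 °C top group (0.814%). These counts follow the rule, which ranked nuclei on the sum of these genes: at a pooled 1338 and 2670 CPM, the latter 2 sets hold few score UMIs in 1000, so they describe the members and compare nothing. Acaca gave 43.8% of the members' score UMIs, Me1 31.7%, Acss2 12.3%, Acly 6.03%, Elovl6 3.43% and Fasn 2.74%. Levels were not scaled by gene length, so these shares do not rank the enzymes. In the top group at 22 °C, Acaca alone gave 79.8% of the score UMIs.

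The levels of the score genes were set by the rule and are given as a description. Acly, ATP-citrate lyase (chr11:100476353-100528000, GRCm38), stood at 951 CPM in the members and at 121, 51.6 and 35.9 CPM in the upper-middle, lower-middle and bottom groups. An Acly UMI was found in 88.2% of members and 16.9% of bottom-group nuclei, and in 54.0% and 3.09% at 1000 UMIs. In non-adipocytes, whose median depth was lower, the share was 11.8%, and 5.86% at 1000 UMIs. The share in the bottom group was thus below that of non-adipocytes at 1000 UMIs and above it before thinning. Fasn, fatty acid synthase (chr11:120805846-120824547), stood at 432, 105, 65.9 and 37.4 CPM, and Elovl6 (chr3:129532355-129638495) at 540, 97.3, 51.4 and 21.4 CPM. Me1 stood at 4996 CPM in members and 247 CPM in the bottom group, Acss2 at 1939 and 96.2 CPM, and Acaca at 6916 and 900 CPM. For each of the 6 genes the step from the upper-middle to the top group was the largest of the 3 steps in CPM.

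Each score gene was then compared after the nuclei had been ranked again by the other 5. Acly stood at 939 CPM in the new top group and 42.8 CPM in the new bottom group, a ratio of 21.9 (18.8 to 25.7). The ratio was 12.9 (11.8 to 14.1) for Acss2, 9.91 (9.45 to 10.4) for Me1, 9.91 (8.59 to 11.48) for Elovl6, 8.32 (7.18 to 9.69) for Fasn and 3.39 (3.31 to 3.48) for Acaca. Between 90.1% and 98.8% of members stayed in the top group when 1 gene was left out. At 22 °C the same procedure gave a ratio of 0.852 (0.722 to 1.00) for Acly, 1.09 (1.02 to 1.17) for Me1, 1.17 (1.13 to 1.20) for Acaca, 1.36 (1.24 to 1.50) for Acss2, 1.64 (1.401 to 1.922) for Elovl6 and 1.88 (1.51 to 2.33) for Fasn. With 1 library at each temperature, the difference between the temperatures was not tested. In the cold library, nuclei high in any 5 of these RNAs were thus also high in the sixth, while at 22 °C the ratios stayed under 1.9. The 22 °C ranking rested on fewer counts, with a median of 16 score UMIs in a top-group nucleus against 72.5 in members. Between 43.2% (without Acaca) and 97.5% (without Acly) of the 22 °C top group stayed in it. The part of these limits in the lower 22 °C ratios was not tested.

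**Figure D2:**
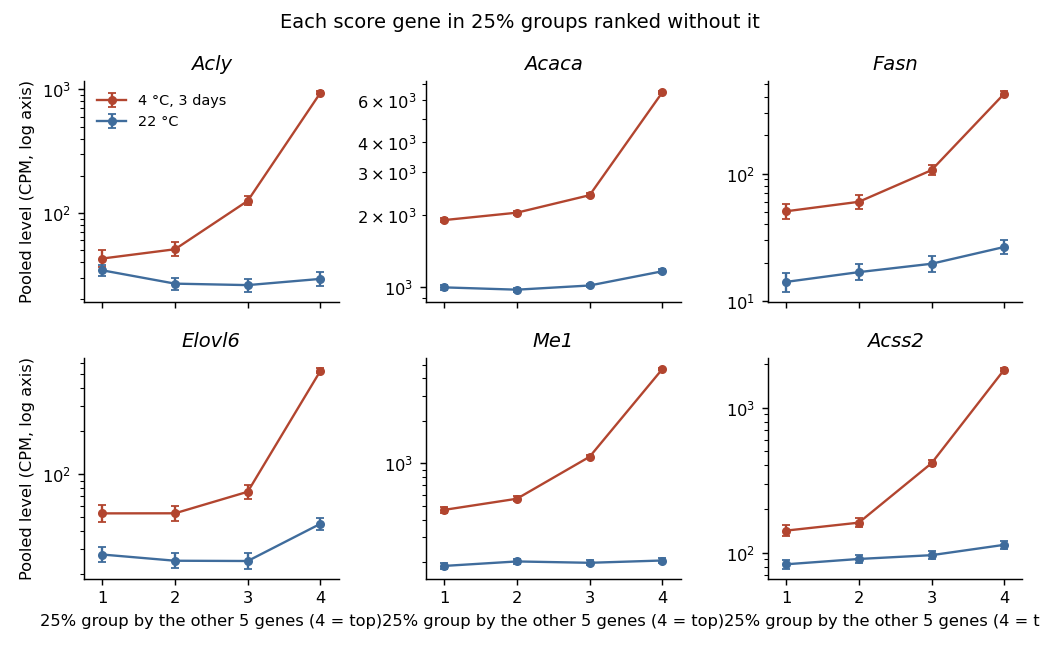
Pooled level of each score gene (vertical axes, CPM, log scale) in the 4 groups of 25% ranked by the other 5 genes (horizontal axis, 4 is the top), in cold and 22 °C iWAT, with 95% counting intervals. The cold lines climb most steeply into the top group, with a top over bottom ratio of 3.39 (Acaca) to 21.9 (Acly), and the 22 °C ratios run from 0.852 (Acly) to 1.88 (Fasn).

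The 6 adipocyte genes were used by the rule, so their levels describe the members and do not check the name. Of the 13 adipocyte markers listed, 4 were higher in members (Acly, Elovl6, Fasn and Pparg) and 3 lower (Ghr, Adipoq and Cidec). Over all genes, 4.30% were at least 1.5-fold higher in members than in the bottom group and 9.97% lower. The markers outside the rule are Pparg, Ghr, Acvr1c and Pde3b. Pparg stood at 5394 CPM in members, 2802 CPM in the bottom group and 776 CPM in non-adipocytes, and Ghr at 9142, 24568 and 1469 CPM. Acvr1c, a receptor of the activin family, stood at 957 CPM in members, 984 CPM in the bottom group and 18.6 CPM in non-adipocytes, and Pde3b, a phosphodiesterase, at 2481, 2922 and 335 CPM. Adipoq, the gene of adiponectin, stood at 80.8 CPM in the members and at 174, 207 and 188 CPM in the upper-middle, lower-middle and bottom groups. An Adipoq UMI was found in 29.4% of members, 48.5% of bottom-group nuclei and 0.574% of non-adipocytes (7.50%, 16.3% and 0.344% at 1000 UMIs). Plin1, a lipid droplet coat protein, stood at 900 CPM in members and 935 CPM in the bottom group, Lipe (hormone-sensitive lipase) at 809 and 988 CPM, and Plin4 at 671 and 765 CPM. Cidec, a droplet fusion protein, was lower in members (704 against 1244 CPM) and Acsl1, an acyl-CoA synthetase, stood at 4500 against 3383 CPM, under the 1.5-fold limit. In non-adipocytes Plin1 stood at 31.1 CPM and Adipoq at 2.6 CPM. Members with under 10 UMIs over the 6 adipocyte genes numbered 21, against 59 in the bottom group.

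Markers of other cell types are given as measured, since the rule kept out nuclei rich in Flt1, Ptprb, Lama2, Dcn, Mrc1 and Ptprc and their lists hold these genes. Summed over a list, those of adipose stem and progenitor cells came to 573 CPM in members and 520 CPM in the bottom group, those of blood endothelial cells to 83.0 and 127 CPM, and those of macrophages to 138 and 175 CPM. Of the markers with at least 20 UMIs over both groups, 5 of 11 stem and progenitor markers, 3 of 7 endothelial and 3 of 6 macrophage markers were at least 1.5-fold lower in members, and 1 (Abca8a) was higher. Of 4 mural and 4 lymphocyte markers, 2 of each were lower and 1 of each was higher, the pericyte marker Cspg4 at 68.7 against 38.2 CPM and the immunoglobulin gene Ighm at 37.7 against 21.6 CPM. Set beside these counts, 4.30% of all genes were higher in members and 9.97% lower. Mmrn1, Lyve1, Themis, Klrk1, Acta2, Sox10, Mki67 and Top2a were at 0 in the members. The part of RNA from other cells in the differences below was not tested.

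Differences between the groups beyond the score genes are log2 ratios with 5 CPM added to both, and a gene is called higher or lower at 1.5-fold. The contrast is the one the rule used, so the counts are a description. Of 11088 genes with at least 20 UMIs over both groups, 4.30% were higher and 9.97% lower in members, with a median log2 ratio of -0.08. Of 8851 genes with at least 50 UMIs, the score genes left out, 425 were higher (4.80%) and 833 lower (9.41%). TMM scaling, which moved the median of all genes by 0.11, gave 666 higher and 576 lower. Medians within about 0.1 of 0 are therefore given without a direction.

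Genes that work beside the 6 enzymes were higher in members for 15 of 27 tested, lower for 1 (Oxsm, a mitochondrial synthase, at 5.96 against 12.7 CPM), with a median log2 ratio of 0.64. Slc25a1, the carrier that exports citrate from mitochondria, stood at 79.6 CPM in members and at 20.2, 11.8 and 14.3 CPM in the upper-middle, lower-middle and bottom groups, a log2 ratio of 2.14 (1.81 to 2.46). The desaturase Scd2 stood at 51.3, 15.4, 4.9 and 2.04 CPM in the same order, with 8 UMIs in the bottom group, while Scd1, the main adipocyte desaturase, stood at 1477 CPM in members and 942 CPM in the bottom group (0.65). Aacs, which activates acetoacetate, stood at 615 against 208 CPM, and Elovl5, an elongase of polyunsaturated chains, at 165 against 54.2 CPM. Of the NADPH-yielding pentose phosphate route, Tkt stood at 401 against 142 CPM, Pgd at 82.2 against 31.8 CPM and G6pdx at 52.0 against 32.1 CPM. Taldo1 and Pgls of that route had log2 ratios of 0.19 and 0.02 and were not called. Hsd17b12 and Tecr, which act in the elongation cycle, had log2 ratios of 1.44 and 1.06, while Hacd2 of that cycle had 0.14 and was not called. Acsl3 had a log2 ratio of 2.10, but it overlaps Utp14b on the same strand and its reads may be shared.

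Cholesterol genes were higher in members for 15 of 23 tested and lower for none, with a median log2 ratio of 1.12. Nsdhl, a sterol dehydrogenase, stood at 98.7 CPM in members and at 41.1, 22.0 and 19.3 CPM in the upper-middle, lower-middle and bottom groups (2.09, 1.79 to 2.39). Msmo1, the sterol methyl oxidase, stood at 62.7 against 11.7 CPM (2.02) and Sc5d, a sterol desaturase, at 166 against 48.6 CPM (1.67). Hmgcs1, an early enzyme of the route, stood at 89.9 against 101 CPM (-0.16, -0.36 to 0.03) and was not called. Srebf2, the sterol-sensing transcription factor, stood at 59.4 against 41.5 CPM (0.47) and was not called.

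Of 20 lipogenic regulators, 4 were higher and 1 lower. Insig1, the retention protein of the SREBP system and itself an SREBP target, stood at 203 CPM in members against 44.0 CPM in the bottom group (2.09, 1.87 to 2.31), and an Insig1 UMI was found in 15.7% of members, 3.53% of the bottom group and 1.15% of non-adipocytes at 1000 UMIs. Mlxipl stood at 549 against 230 CPM (1.24), Pparg, the adipocyte master regulator, at 5394 against 2802 CPM (0.94), and Srebf1 at 173 against 88.6 CPM (0.93). Cebpa was lower, at 12.9 against 28.3 CPM (-0.90, -1.26 to -0.52).

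Of 32 genes of glucose uptake, glycolysis and pyruvate use, 12 were higher and 3 lower, with a median log2 ratio of 0.42. Enzymes and carriers of mitochondrial pyruvate were among the higher ones: Dlat, a subunit of pyruvate dehydrogenase, stood at 337 against 127 CPM (1.38), Pdhb at 83.4 against 35.9 CPM (1.11), the pyruvate carrier Mpc2 at 319 against 155 CPM (1.02) and pyruvate carboxylase Pcx at 2190 against 1239 CPM (0.82). Slc2a4, the insulin-responsive glucose transporter, stood at 49.6 against 29.3 CPM (0.67). The pyruvate dehydrogenase kinases differed in direction, with Pdk1 at 57.7 against 21.4 CPM and Pdk3 at 2.62 against 11.96 CPM. Triglyceride synthesis genes were higher for 6 of 18 and lower for 1, among them the acyltransferases Agpat2 (432 against 145 CPM, 1.54) and Gpam (525 against 230 CPM, 1.17). The glycerol channel Aqp7 was the lower one, at 44.1 against 77.4 CPM. Of 13 genes of lipolysis and the droplet coat, 5 were higher and none lower, with Abhd5, the lipase co-activator, at 566 against 240 CPM and Plin2 at 245 against 109 CPM. The lipases Pnpla2 and Mgll had log2 ratios of -0.49 and -0.36 and were not called. The list median was 0.21, and the medians of its genes' counting bounds were -0.15 and 0.45. That list leaves out the rule's genes Cidec, Plin1, Plin4 and Lipe, of which Cidec was lower in members. Cidea and Plin5, both among the higher ones, are also in the thermogenic list below. Of 13 genes of fatty acid uptake, 2 were higher (Fabp5 and Angptl8) and 1 lower, the lipase inhibitor Angptl4 at 45.5 against 104 CPM.

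**Figure D3:**
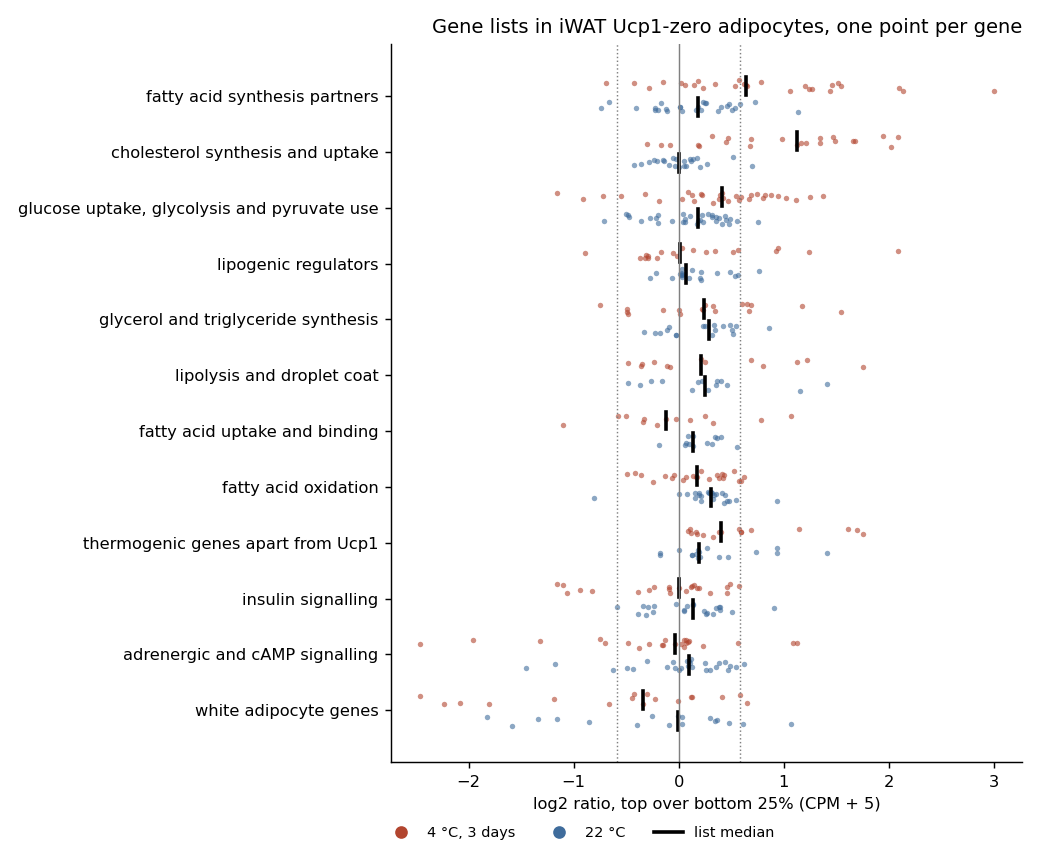
Log2 ratio of the top over the bottom group (horizontal axis, 5 CPM added) for each tested gene (point) of each list, in cold and 22 °C iWAT, with list medians as bars and the 1.5-fold limits as dotted lines. In the cold the medians of cholesterol genes (1.12) and fatty acid synthesis partners (0.64) lie to the right of 0, and that of white adipocyte genes (-0.34) lies to the left.

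Thermogenic genes other than Ucp1 were higher in members for 7 of 17 tested and lower for none, with a median log2 ratio of 0.40. The median was 0.77 without Acaca in the score. The medians of the genes' counting bounds reached below 0 without Elovl6 in the score (0.33, -0.02 to 0.47) and when nuclei were ranked on one part of their UMIs and measured on the rest (0.34, -0.01 to 0.65). Cidea, a droplet protein of brown and beige fat, stood at 97.7 against 25.5 CPM (1.75), Esrrg, an estrogen-related receptor, at 464 against 148 CPM (1.61) and Ppargc1a, the coactivator of mitochondrial biogenesis, at 313 against 139 CPM (1.14). Their levels in Ucp1-positive adipocytes of the same library were 918, 3127 and 893 CPM. Dio2, the deiodinase that activates thyroid hormone, was at 4.53 CPM in members, 3.82 CPM in the bottom group and 233 CPM in Ucp1-positive nuclei. Of 23 fatty acid oxidation genes, 2 were higher (Acaa2 and Ppara) and none lower.

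White adipocyte genes were lower for 6 of 17 tested and higher for 2, with a median log2 ratio of -0.34. Gulp1, an engulfment adaptor, stood at 277 CPM in members and at 1258, 1550 and 1546 CPM in the upper-middle, lower-middle and bottom groups (-2.46, -2.55 to -2.37), so the top group stood apart from the other 3. Nnat, an imprinted proteolipid, stood at 272 against 1296 CPM (-2.23), Npr3, the clearance receptor for natriuretic peptides, at 364 against 1285 CPM (-1.81) and Cfd, the secreted protease adipsin, at 64.4 against 153 CPM (-1.18). Lep, the gene of leptin, stood at 128 against 117 CPM (0.13) and Retn at 157 against 158 CPM (-0.01), and neither was called. Cyp2e1 was higher, at 873 against 579 CPM.

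Among hormone signalling genes, no insulin signalling gene of 23 was higher and 5 were lower. The list median of 0.0043 is given without a direction. For this and the other counts here, the shares over all genes were 4.30% higher and 9.97% lower. Irs2 stood at 68.6 against 136 CPM (-0.94), Igf1r at 48.9 against 115 CPM (-1.16) and Foxo3 at 57.9 against 130 CPM (-1.10), while Insr, the insulin receptor, stood at 707 against 752 CPM (-0.09). Of 23 adrenergic and cAMP genes, 2 were higher and 5 lower. Adcy5, an adenylyl cyclase, stood at 103 against 589 CPM (-2.46) and the inhibitory G protein subunit Gnai1 at 229 against 578 CPM (-1.32), while the receptor Adrb1 stood at 58.2 against 24.7 CPM (1.09) and Adrb3, the main receptor of mouse adipocytes, at 401 against 341 CPM (0.23). Ghr, the growth hormone receptor, stood at 9142 against 24568 CPM (-1.43). Of 12 adipokine genes 1 was higher and 2 lower, and of 12 stress and immediate early genes none was higher and 2 were lower.

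The genes with the highest ratio over all genes with at least 50 UMIs began with Parm1, a mucin-like membrane protein, at 577 CPM in members and 124, 55.5 and 41.7 CPM in the upper-middle, lower-middle and bottom groups (3.64, 3.43 to 3.85). At 1000 UMIs a Parm1 UMI was found in 35.6% of members (70.3% before thinning), 4.26% of the bottom group and 0.344% of non-adipocytes. Hephl1, a copper-dependent ferroxidase, stood at 69.6 against 1.27 CPM and Steap4, a metalloreductase that reduces iron and copper, at 1235 against 258 CPM (2.24). Ppp1r3b, which brings protein phosphatase 1 to glycogen, stood at 96.5 against 10.4 CPM (2.72), and Gpd2, the mitochondrial glycerol-3-phosphate dehydrogenase, at 531 against 109 CPM (2.23). Sorl1, a sorting receptor, and Prune2 had log2 ratios of 2.38 and 3.06. Pgm3, of hexosamine synthesis, had a log2 ratio of 2.83 and lies 9528 bases from the score gene Me1 on the same strand.

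At the other end, Cacna1e, a calcium channel subunit, stood at 8.34 CPM in members and 57.6, 58.5 and 147 CPM in the upper-middle, lower-middle and bottom groups (-3.51, -3.83 to -3.17). Plxdc2, a plexin-domain receptor, stood at 91.3 against 685 CPM (-2.84), Dock8 at 22.9 against 172 CPM (-2.67) and Bicc1, an RNA-binding protein, at 10.3 against 81.2 CPM (-2.50). Plxdc2 and Bicc1 stood at 1672 and 988 CPM in the non-adipocytes, and Sulf1 (29.1 against 184 CPM) and Rcan2 (4.29 against 41.5 CPM) at 277 and 280 CPM there. The part of RNA from those cells in these 4 differences was not tested. Gulp1, Adcy5 and Peg3 (48.6 against 292 CPM, -2.47) were also among the 12 lowest, and they stood at 790, 39.3 and 18.1 CPM in non-adipocytes.

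**Figure D4:**
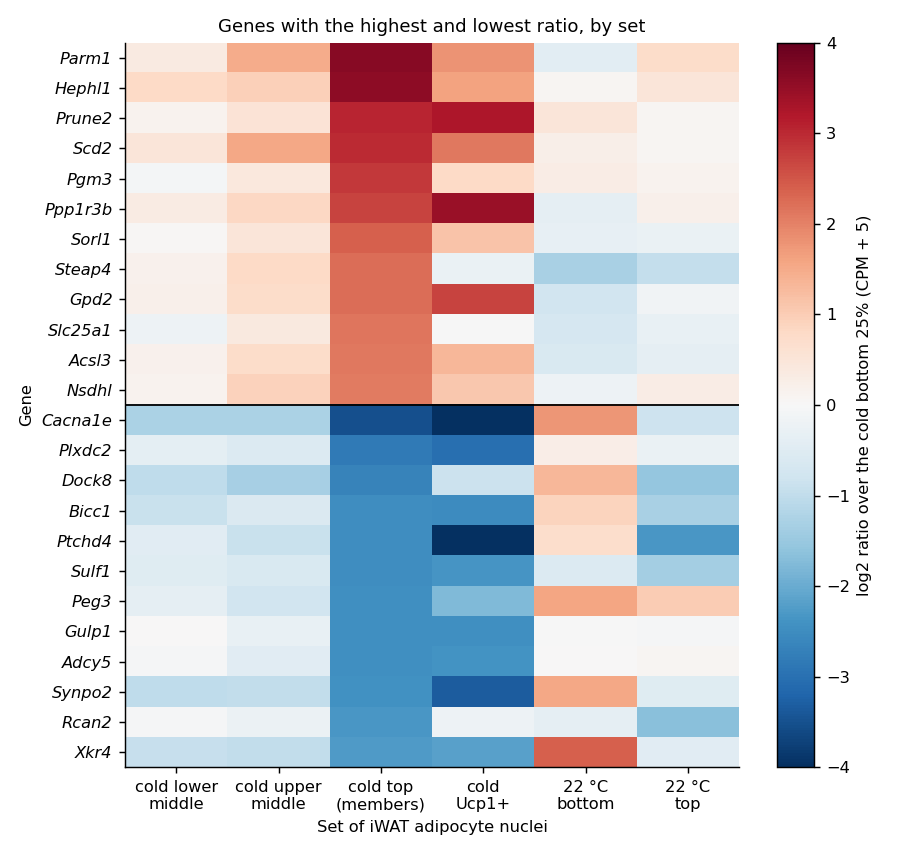
Log2 ratio over the cold bottom group (colour, 5 CPM added) of the named genes (rows) in the other cold groups, the cold Ucp1-positive adipocytes and the 22 °C bottom and top groups (columns). Parm1 is at 3.64 and Gulp1 at -2.46 in the cold top group, and the middle groups lie nearer to the bottom group for both.

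The rule was applied next to the 4910 Ucp1-zero adipocytes of iWAT at 22 °C, whose score was far lower. At or above the cold upper limit lay 14 of them (0.285%, 0.156 to 0.478). That share was 0.0815% without Acaca in the score and 0.570% without Me1. The median score was 1264 CPM at 22 °C and 3343 CPM in the cold, and the 95th percentile 3118 and 21189 CPM. The 22 °C top group (1228 nuclei, median 6416.5 UMIs) stood at 2670 CPM pooled and its bottom group at 534 CPM. Between these groups 1.19% of 13680 genes were higher and 8.79% lower. Of the fatty acid synthesis partners 3 of 27 were higher and 2 lower (median 0.18), and of the cholesterol genes 1 of 23 was higher and none lower (median 0.01). Insig1 stood at 26.8 against 16.8 CPM, Slc25a1 at 10.8 against 6.97 CPM and Nsdhl at 25.1 against 16.0 CPM.

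Of the 12 genes lowest in the cold members, 8 were also at least 1.5-fold lower in the 22 °C top than the 22 °C bottom group, and Adcy5, Gulp1, Peg3 and Plxdc2 were not. The 8 include Bicc1, Sulf1 and Rcan2, which stood higher in the cold non-adipocytes than in either cold group. Ptchd4 had a log2 ratio of -3.05 at 22 °C and Cacna1e -2.59. Of the 12 highest, 2 were at least 1.5-fold higher at 22 °C and none was lower. Between the 22 °C groups 1.19% of all genes were higher and 8.79% lower. Gulp1 stood at 1508 CPM in the 22 °C top and 1518 CPM in the 22 °C bottom group, Adcy5 at 628 and 594 CPM, Ghr at 21089 and 22546 CPM and Nnat at 2026 and 1647 CPM. Adipoq was higher in the 22 °C top group, at 289 against 156 CPM (0.87), and so was Cfd, at 205 against 132 CPM (0.61). Npr3 was lower there, at 1142 against 2063 CPM (-0.85), as it was in the cold. The 22 °C bottom group held 189 nuclei with under 10 UMIs over the 6 adipocyte genes and the 22 °C top group 13, and their part in these ratios was not tested. Whether these ratios differ between the libraries was not tested, since each temperature has 1 library.

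Set side by side, the cold members and the 22 °C top group differed by at least 1.5-fold upward in 6.55% and downward in 16.0% of 12215 genes. Partners were higher in the cold members for 17 of 27 and lower for 1 (median 0.95), and cholesterol genes for 15 of 23 and lower for 1 (median 1.19). Between the 2 bottom groups, where 4.60% of genes were higher and 12.6% lower in the cold, 1 of 22 cholesterol genes was higher and none lower (median 0.02), and 11 partners were higher and 4 lower (median 0.38).

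The members were also set against the 155 Ucp1-positive adipocytes of the same library. Of the 25 listed thermogenic genes 19 had at least 20 UMIs over both sets, of which none was higher and 19 were lower in members, with a median log2 ratio of -2.59. Of 9721 genes, 15.5% were higher and 18.3% lower. A list gene could enter with UMIs from the Ucp1-positive nuclei alone, and with no minimum count 23 list genes had a median of -2.24. Ppara, the regulator of fat oxidation, stood at 408 against 3729 CPM (-3.18), Acot11, a thioesterase of thermogenic fat, at 27.7 against 292 CPM (-3.18) and Dio2 at 4.53 against 233 CPM (-4.64). Fatty acid oxidation genes were lower for 18 of 24 and higher for none (median -1.36), and genes of glucose and pyruvate use were lower for 16 of 30 and higher for 4 (median -0.66). Among the 8 genes lowest in members were also the muscle-type carnitine transferase Cpt1b, the fatty acid binding protein Fabp3, the acyl-CoA synthetase Slc27a2 and glycerol kinase Gk. Ucp1 itself was the first of them by construction.

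Lipogenic RNAs were present in the Ucp1-positive nuclei too, at a pooled score of 4712 CPM. Of the 155, 21 (13.5%, 8.59 to 19.96) lay at or above the members' limit and 35 (22.6%) at or below the bottom limit. Elovl6 was higher in them than in members (1053 against 540 CPM), whereas Me1 (844 against 4996 CPM), Fasn (79.0 against 432 CPM) and Acly (200 against 951 CPM) were lower. These are score genes, and members were chosen for high score while Ucp1-positive nuclei were not, so the lower levels follow from the rule. In the Ucp1-positive nuclei Me1, Fasn and Acly stood above their levels in the bottom group. That group was chosen for a low score, so these higher levels are a description too. Over all 2717 Ucp1-zero nuclei the pooled score was 6110 CPM, above that of the Ucp1-positive nuclei. Scd1 stood at 361 CPM in Ucp1-positive nuclei and 1477 CPM in members, and Slc25a1 at 14.0 and 79.6 CPM. Cholesterol genes were higher in members for 11 of 22 and lower for 1, and partners for 11 of 25 and lower for 5. Over all genes of this comparison 15.5% were higher and 18.3% lower, so the share of lower partners was close to that over all genes.

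White adipocyte genes were higher in members than in Ucp1-positive nuclei for 9 of 16 and lower for none (median 0.93). The shares over all genes were 15.5% higher and 18.3% lower. Lep stood at 128 against 21.7 CPM and Retn at 157 against 53.6 CPM. Gulp1 stood at 277 CPM in members and 279 CPM in Ucp1-positive nuclei, Adcy5 at 103 and 108 CPM, Npr3 at 364 and 333 CPM, and Plxdc2 at 91.3 and 80.3 CPM. These 4 genes, set side by side after their values were seen, were thus near their Ucp1-positive level in members and far above it in the bottom group. Highest in members against Ucp1-positive nuclei were Map2k6, a kinase of the p38 pathway, at 135 against 10.2 CPM, and Rgs7bp at 426 against 45.9 CPM. Steap4 was also in that group, at 1235 against 212 CPM.

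The share of Ucp1-zero adipocytes that reached the cold iWAT limit, 25% there by construction, varied widely over the other depots. It was 76.1% in iBAT at 6 months and 22 °C, 56.2% in cold iBAT (of 260 nuclei), 38.1% in cold mPRAT and 25.7% in mPRAT at 6 months and 22 °C. The share was 21.6% and 16.7% in mPRAT at 1 and 2 months, 12.6% and 10.5% in iBAT at 1 and 2 months, 8.86% in lPRAT at 2 months and 0.727% in lPRAT at 6 months. These libraries differ in depth, with a median of 1543 to 6550 UMIs in their own top groups. Cold mPRAT lost 68.5% of its barcodes with at least 1000 UMIs to the mitochondrial limit, against 0.0422% to 27.1% elsewhere.

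Within each of the other 11 libraries, the same groups were formed. The median of the fatty acid synthesis partners was above 0 in 11 of 11, from 0.18 in iWAT at 22 °C to 2.16 in cold iBAT, and the median of their lower counting bounds was above 0 in 7. That of the cholesterol genes ran from 0.01 to 1.80 in the same libraries and was above 0.1 in 9 of 11, with the median of the lower bounds above 0 in 4. Slc25a1, Mlxipl, Srebf1, Gpd2 and Ppp1r3b each had a positive log2 ratio in 11 of 11 libraries, and Insig1 in 10 of the 10 where it had enough UMIs. Thermogenic genes had a median above 0.1 in 7 of 11 and below -0.1 in 4, from -0.45 in mPRAT at 1 month to 1.36 in cold iBAT. White adipocyte genes had a median above 0.1 in 6 of 11 and below -0.1 in 4, from -1.69 in iBAT at 6 months to 0.82 in iBAT at 2 months. Gulp1 had a positive ratio in 6 of 11, Steap4 in 7 of 11 and Adipoq in 7 of 11, from -1.27 to 0.87, while Bicc1 was at least 1.5-fold lower in 11 of 11. The signs of the white and thermogenic medians and of the Adipoq ratio thus varied between libraries.

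**Figure D5:**
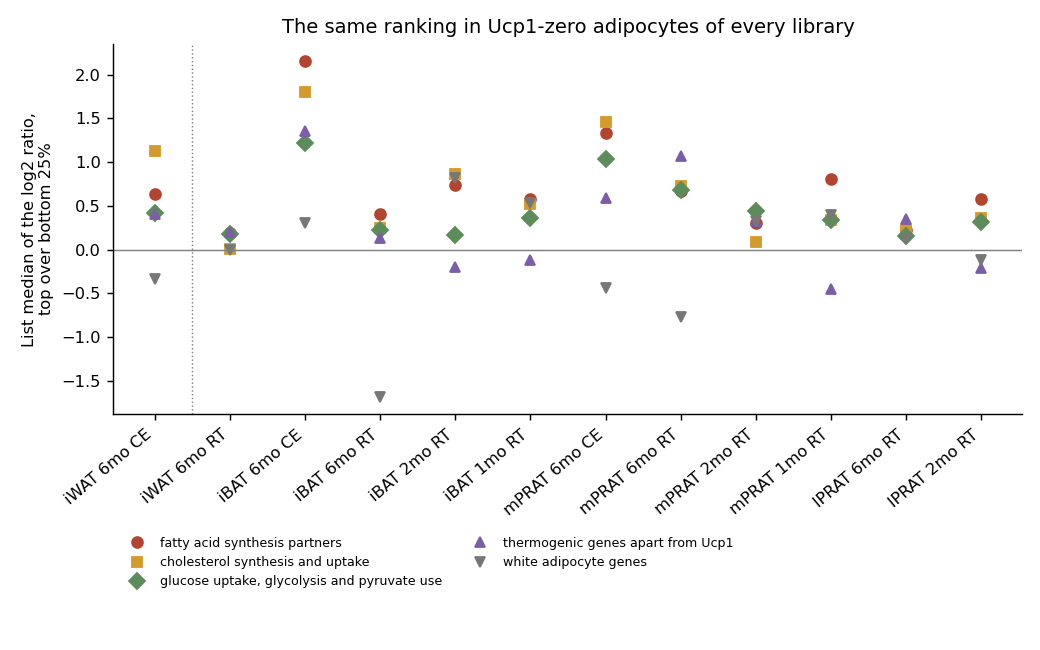
Median log2 ratio of the top over the bottom 25% (vertical axis) for 5 gene lists (symbols) in each of the 12 libraries (horizontal axis, cold iWAT left of the dotted line). The partners' median is above 0 in each library, and that of white adipocyte genes runs from -1.69 (iBAT at 6 months) to 0.82 (iBAT at 2 months).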

How the data were processed

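The deposited values are raw UMI counts, 1 matrix for each library. The authors used Cell Ranger 7.0.0 and mm10, per the submitters' processing notes, and any later filter is not given in the sources used here. Every barcode held at least 500 UMIs, and total UMIs ran from 5.46e+06 to 8.70e+07 per library (21017422 in cold iWAT). Of 32285 gene identifiers 32235 were found in GENCODE M21 (GRCm38), which gave the gene positions. The list symbols Aldoa, Ddit3 and Ccl21a, each on several rows, were left out. Some items are not reported here.

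Counts were summed over the nuclei of a set and divided by the set's total (CPM). Log2 ratios add 5 CPM to both sets, and their intervals, and those of ratios, come from the exact conditional binomial. Shares have exact Clopper-Pearson intervals. Lists and the all-gene shares set beside them use genes with at least 20 UMIs over both sets. The counts over 8851 genes and the choice of the highest and lowest genes use at least 50. Genes were named as the 12 highest and 12 lowest over all genes (8 each way against Ucp1-positive nuclei), up to 4 each way in a list, and the genes of the rule. Predicted genes were counted but not named (27 of the higher, 82 of the lower). Genes outside that rule, such as Insr, Lep and Retn, were named after their values were seen. The members and lists were chosen with earlier results of these data known.

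Doublets were not removed. As an alternative, the 202 highest scrublet scores (scanpy 1.11.5, 0.8% per 1000 barcodes) were left out, which took 29 members and 52 bottom-group nuclei; the method's own threshold marked 164 barcodes (3.26%). The other alternatives were TMM factors (edgeR 4.0.16), 1 or 20 CPM added, no minimum count, a 2-fold limit, at least 2000 UMIs, at most 5% mitochondrial UMIs, at least 10 adipocyte UMIs, thinning to 1000 UMIs, a mean over nuclei, ranking on one part of the UMIs and measuring on the rest, the ranking split at its median and each score gene left out. The code (Python 3.11.15, numpy 2.4.6, scipy 1.17.1, pandas 2.3.3) was tested on simulated data.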

Additional observations from a re-analysis of the deposited data

Results flagged for a closer look

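Some log2 ratios of the top over the bottom score group had opposite signs in cold iWAT and in iWAT at 22 °C. The median log2 ratio of the 6 adipocyte genes of the rule was -0.24 in the cold and 0.32 at 22 °C. That of the fatty acid uptake and binding list was -0.12 in the cold and 0.14 at 22 °C, but in the cold the medians of its genes' counting bounds were -0.39 and 0.14 and TMM scaling moved the median of all genes by 0.11. The cold median of that uptake list is therefore given no direction. Adipoq, the gene of adiponectin, had a log2 ratio of -1.17 in the cold and 0.87 at 22 °C. Cfd, the gene of adipsin, had -1.18 and 0.61. G6pdx, the first enzyme of the pentose phosphate route, had 0.62 and -0.67. In the cold the medians of the counting bounds of the 6 adipocyte genes were -0.31 and -0.17, and their median was not calculated with TMM factors. At 22 °C, 189 bottom-group and 13 top-group nuclei held under 10 UMIs over these 6 genes, against 59 and 21 in the cold. The part of such nuclei in the opposite signs was not tested. With 1 library at each temperature the difference between the temperatures was not tested.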

How the results depend on the processing

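No paired analysis was made, as no result here comes from a test. Each depot at each age and temperature has 1 library, so replicate numbers pair none. The top and bottom score groups are pairs within a library, and their ratios over libraries are given as values with no test. Of 157 alternative values, 128 stayed within 1.5 times a count of genes, or within the counting bounds of another value, 18 moved and 11 reversed. The cause was not tested. The 425 higher genes became 143 at 2-fold, 267 with 20 CPM added, 666 with TMM factors and 183 with the ranking split at its median. The 833 lower genes became 257 at 2-fold, 375 with 20 CPM added, 253 with the median split and 476 after thinning to 1000 UMIs, where fewer genes (4798) could be tested. The insulin signalling median of 0.0043 became 0.14 with TMM factors and -0.013 with at least 10 adipocyte UMIs, -0.0035 with at least 2000 UMIs, -0.0087 without the highest doublet scores, -0.044 as a mean of nuclei, -0.071 after thinning and -0.015 with the median split. It became -0.071 without Acaca in the score, -0.0088 without Acly, -0.017 without Elovl6, -0.00021 without Fasn and -0.023 without Me1, so that list has no direction. The partners' median was 0.45 with the median split. At 22 °C the partners' median of 0.18 was 0.041 without Acaca, 0.050 as a mean of nuclei, 0.083 with the median split and 0.11 with 20 CPM added. The share of 22 °C nuclei at or above the limit was 0.0815% without Acaca, 0.570% without Me1 and 0.448% after thinning. The thermogenic median of members over Ucp1-positive nuclei was -1.66 with 20 CPM added, -2.88 as a mean of nuclei and -3.20 after thinning, and that over the bottom group 0.77 without Acaca, 0.25 as a mean of nuclei and 0.27 with 20 CPM added. The white median was -0.23 without Acaca and -0.21 with the median split. At 22 °C, 43.2% of the top group stayed in it without Acaca. A gene with few UMIs, such as Scd2 with 8 in the bottom group, has a wide interval, and the Ucp1-positive set holds 155 nuclei.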

Other observations

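Glycogen genes, a list chosen after the values had been seen, were higher in the members than in the bottom score group for 5 of 20 tested and lower for 1, with a median log2 ratio of 0.22. Over all genes 4.30% were higher and 9.97% lower. Since the list was made with the values known, its counts are a description and no test. Gbe1, the branching enzyme, stood at 1736 against 548 CPM and Gys2, a glycogen synthase, at 97.5 against 31.1 CPM. Phkg1, a subunit of phosphorylase kinase, was the lower one, at 20.3 against 85.5 CPM. Ppp1r3b stood at 96.5 CPM in members and 166 CPM in Ucp1-positive nuclei, and Gys2 at 97.5 and 170 CPM.

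Imprinted genes, also listed after the values had been seen, were lower in members for 6 of 11 tested and higher for none, with a median log2 ratio of -0.95. Peg3 stood at 48.6 against 292 CPM, Zim1, which lies 7441 bases from Peg3 on the same strand, at 0.715 against 20.4 CPM, and Mest at 1.91 against 24.2 CPM. At 22 °C 4 of 15 were lower and none higher, with a median of -0.29. Over all genes 9.97% were lower in the cold and 8.79% at 22 °C. Peg3 was among the 12 lowest genes and the list was made with the values known, so its counts are a description and no test. Over the other 11 libraries the median ran from -1.17 to -0.05 and was below -0.1 in 10. The median of stem and progenitor markers was also below -0.1 in 11 of 11, from -2.69 to -0.56, and in cold iWAT it was -0.55; the part of RNA from those cells was not tested. The median of all genes ran from -0.14 to 0.00 in those libraries.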
